A study of Saccharomyces cerevisiae with 13 samples.

Results

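The comparison described here is that of a *yap1* deletion mutant carrying the empty vector pRS426ADH with WT carrying the same empty vector. Its members were taken by library title, and they are 6 of the 13 libraries of the series, 3 from the *yap1* mutant and 3 from WT. Both strains derive from *S. cerevisiae* BY4741, a haploid *MAT*a laboratory strain, and the *YAP1* gene of the mutant is replaced by a KANMX cassette. The vector is a multicopy plasmid with a *URA3* marker. The fits also held 3 libraries of WT overexpressing *YAP1* from this vector, which add to the estimate of the spread. Below, "all libraries" means these 9 plasmid libraries, and 8 remain without WT replicate 2. The titles name no caffeine for any of the 6 libraries compared, and they are taken as untreated here. The question is how the transcriptome differs when Yap1 is missing. RNA was measured with QuantSeq 3′ mRNA-Seq, which primes on the poly(A) tail and counts 1 position near the 3′ end of a transcript. The sources used here do not say whether these cultures grew in rich or minimal medium, nor whether the 3 libraries of a strain came from separate cultures. The p-values therefore measure the spread between libraries, which may be partly technical. In bulk RNA, fewer cells that express a gene and less RNA per cell cannot be told apart.

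Yap1 is a basic leucine zipper transcription factor of the AP-1 type. In unstressed cells it is exported from the nucleus, and oxidation of its cysteines or modification by electrophiles makes it stay there and activate genes for thioredoxins, peroxiredoxins, glutathione synthesis and drug efflux. It binds Yap1 response elements (YREs) such as TTACTAA and TGACTAA. Many nuclear genes for mitochondrial proteins, above all those of the mitochondrial ribosome, share a different element. Their mRNAs carry the motif TGTANATA after the stop codon, where the RNA-binding protein Puf3 binds and promotes their decay on glucose. *COX17* is the textbook target of Puf3.

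The libraries held 20589318 to 21057138 counts in the *yap1* mutant and 21384429 to 25609092 in WT. Ribosomal RNA rows took 54.0 ± 3.75% of the counts in the *yap1* mutant and 67.0 ± 6.97% in WT (SD, n = 3 each), a difference of -13.0 percentage points with an exact two-sided permutation p of 0.1, the smallest that 3 against 3 libraries can give. WT replicate 2 stood apart. Its log2 levels correlated with those of the other WT libraries across genes at r = 0.894 and 0.909, against 0.963 between WT replicates 1 and 3, and it is the only one of these libraries in which the genes carry another version of the names. Within the *yap1* mutant r was 0.971 to 0.978. In the fits, overexpression libraries included, the biological coefficient of variation was 17.3% without WT replicate 2, against 25.8% with all libraries. The value of each library is therefore shown for the genes described, and log2 fold changes and adjusted p are without WT replicate 2 unless all libraries are named. All changes are relative to the median gene, because scaling by total counts, ribosomal RNA included, moves the median log2 fold change of all genes to 0.36, against -0.003 with TMM scaling. Under that scaling the sign of many small falls turns.

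*YAP1* itself followed the labels. It had 0.337, 0.0878 and 1.04 CPM in the *yap1* mutant, against 43.1, 28.0 and 33.8 CPM in WT (CPM, counts scaled to a common library size after TMM). The log2 fold change was -6.17 (SE 0.56, adjusted p = 0.0040) with all libraries and -6.30 (SE 0.42, adjusted p = 0.00026) without WT replicate 2. With each library left out in turn it ranged from -7.31 to -5.67, and the adjusted p was 0.089 without *yap1* replicate 1 and 0.054 without WT replicate 1. *LEU2* and *MET17* had no count in any of the 6 libraries, whereas *LYS2*, which the strain list of the study gives as deleted, had 30.2, 31.2 and 30.9 CPM in the *yap1* mutant and 43.1, 26.8 and 32.9 CPM in WT. *URA3*, the marker of the vector, was high in both strains, with 6179, 4661 and 5531 CPM in the *yap1* mutant and 6340, 6239 and 5302 CPM in WT. The **a**-factor gene *MFA1* and the receptor gene *STE2* were present in all 6 libraries. The other 7 genes of the Yap family had log2 fold changes between -0.27 and 0.73 without WT replicate 2, and the lowest adjusted p among them was 0.67. Of the 6 nearest neighbours of *YAP1* on chromosome XIII, 5 had an adjusted p of 0.22 or more. The other neighbour, *MRPL39*, encodes a protein of the mitochondrial ribosome and is described with that group.

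With all libraries, 4 genes were higher in the *yap1* mutant (0.059% of the 6781 tested) and 1 was lower (0.0147%). The 4 were *COX17*, *MDM35*, *MNP1* and *HSP10*, and the lower gene was *YAP1* itself. Without WT replicate 2, 77 genes were higher (1.13% of the 6825 tested) and 23 were lower (0.337%), the 5 genes among them. All 100 had the same direction with all libraries, and in 87 of them the 3 *yap1* and the 3 WT libraries did not overlap. The calls contrast 5 of these 6 libraries, so both counts are largely set by that choice. Only the position of WT replicate 2 is new in them, and the shares over all genes are no yardstick for the 87. Of all genes tested, 7.37% had all 3 *yap1* libraries above all 3 WT libraries and 8.04% had them all below. In the sections that follow, "called" means an adjusted p under 0.05 without WT replicate 2. With all libraries the other 95 genes had an adjusted p of 0.054 or more. When the overexpression libraries were left out of the fit, 62 genes were higher and 24 lower without WT replicate 2. With WT replicate 2 that fit called none. Taking WT replicate 2 back in moved the log2 fold change of the 100 genes by a median of 0.14, and by over 0.5 in 6 of them.

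The 4 genes higher with all libraries encode mitochondrial proteins. *COX17* encodes a small copper chaperone of the intermembrane space that hands copper to Sco1 for the assembly of cytochrome c oxidase. It had 204, 212 and 237 CPM in the *yap1* mutant, against 62.9, 77.6 and 59.5 CPM in WT. The libraries were far apart, with the lowest *yap1* value above the highest WT value by more than 2-fold, and WT replicate 2 was the highest of the WT libraries here. The log2 fold change was 1.71 (SE 0.15, adjusted p = 0.0013) with all libraries and 1.84 (SE 0.15, adjusted p = 2.2e-07) without WT replicate 2. *MDM35* encodes an intermembrane space protein that partners the phospholipid carrier Ups1. It had 97.1, 104 and 87.9 CPM in the *yap1* mutant and 45.7, 47.1 and 53.2 CPM in WT, a log2 fold change of 0.98 (adjusted p = 0.026) and 0.97 without WT replicate 2 (adjusted p = 0.00097). *MNP1*, for a protein of the large subunit of the mitochondrial ribosome, had 88.1, 95.8 and 94.0 CPM in the *yap1* mutant and 42.9, 34.5 and 51.5 CPM in WT. *HSP10*, the lid of the mitochondrial chaperonin Hsp60, had 427, 504 and 475 CPM in the *yap1* mutant and 246, 184 and 230 CPM in WT. For both the log2 fold change was 0.99 without WT replicate 2 (adjusted p = 0.00097), against 1.11 for *MNP1* and 1.09 for *HSP10* with all libraries (adjusted p = 0.046 for both), and in neither did the strains overlap.

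**Figure D1:**
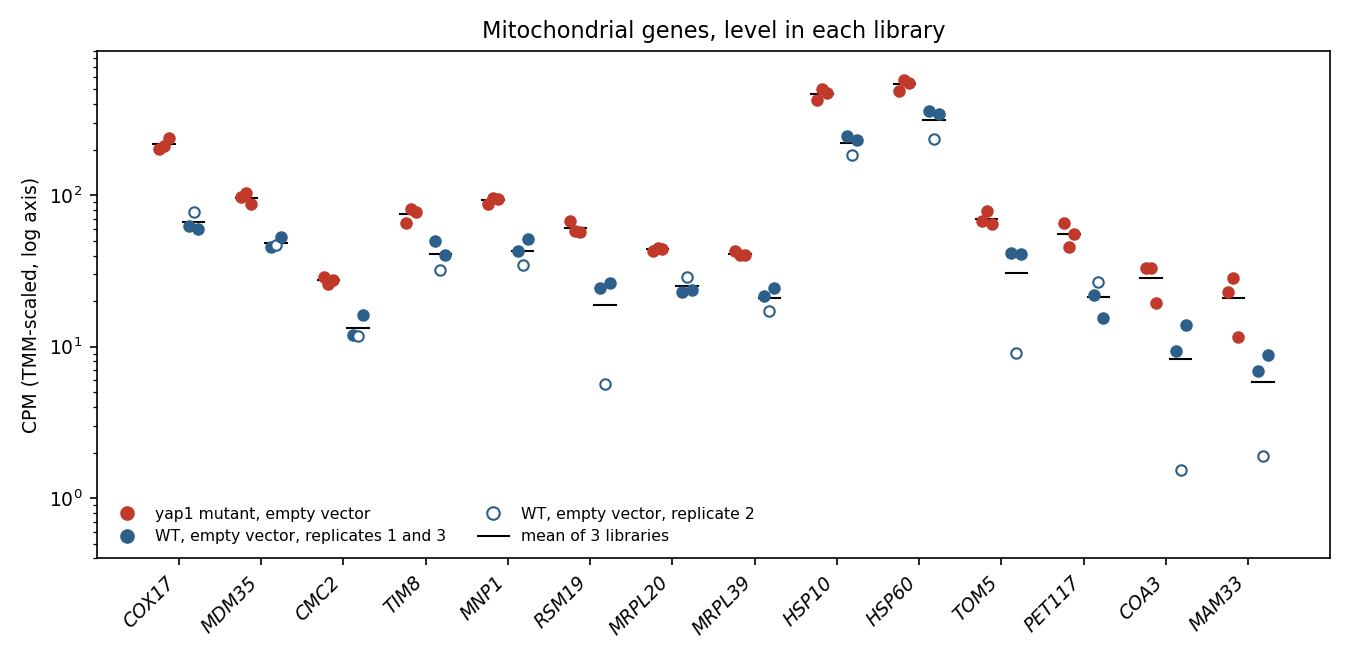
CPM (log axis) of 14 genes for mitochondrial proteins in each library. Filled red points are the *yap1* mutant, filled blue points WT replicates 1 and 3, open points WT replicate 2, and bars the mean of 3 libraries. For every gene shown the 3 red points lie above all blue points, and the open point is far below the other WT libraries for *RSM19*, *TOM5*, *COA3* and *MAM33*.

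*COX17* and *MDM35* belong to a family of small intermembrane space proteins with paired cysteine motifs, which the Mia40 and Erv1 relay oxidizes. Of the 20 genes of this family, 19 were tested, and *COX19* had too few counts. All 19 had a log2 fold change above 0, with a median of 0.72 with all libraries and 0.50 without WT replicate 2, against -0.003 and 0.01 over all genes tested. In 11 of the 19 (57.9%, against 7.37% of all genes) the strains did not overlap, in each with the *yap1* mutant higher. Of the 19, 5 were called (26.3%, against 1.13% of all genes). Besides *COX17* and *MDM35* these were *CMC2*, *TIM8* and *TIM9*. *CMC2*, for a protein needed for full cytochrome c oxidase activity, had 28.7, 26.0 and 27.7 CPM in the *yap1* mutant and 12, 11.9 and 16.3 CPM in WT (log2 fold change 0.97, adjusted p = 0.0068, and 0.054 with all libraries). *TIM8* and *TIM9* encode small Tim chaperones that escort hydrophobic proteins across the intermembrane space. *TIM8* had 65.8, 81.6 and 78.0 CPM in the *yap1* mutant and 50.0, 31.9 and 40.1 CPM in WT (log2 fold change 0.75, adjusted p = 0.013). *TIM9*, which was named after its values were seen, had 31.9, 24.4 and 23.4 CPM in the *yap1* mutant and 14.0, 24.8 and 17.2 CPM in WT, so that WT replicate 2 lay within the *yap1* range (log2 fold change 0.78 and adjusted p = 0.044 without it). In the relay itself, *MIA40* had a log2 fold change of 0.48 (adjusted p = 0.11), near the median of the family, and *ERV1* one of 0.31 (adjusted p = 0.40), and neither was called. With a *yap1* library left out too, 4, 3 and 7 of the 19 were called without *yap1* replicates 1, 2 and 3. Over all genes these fits called 60, 42 and 86 higher.

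The mitochondrial ribosome, which translates the few mRNAs of mitochondrial DNA, made up the largest group. Of 73 genes for its proteins, all tested, 51 had all 3 *yap1* libraries above all 3 WT libraries (69.9%, against 7.37% of all genes). None of the 73 had them all below. Without WT replicate 2, 19 were called higher (26.0%, against 1.13% of all genes) and none lower. When a *yap1* library was left out too, 15 to 18 were called, beside 42 to 86 called higher over all genes. The median log2 fold change was 0.58 with all libraries and 0.59 without WT replicate 2. Of the 73, 71 were above 0 without WT replicate 2, and they ranged from -0.03 to 1.83. The median level of the group, as the log2 distance from the mean of each gene, was 0.30, 0.21 and 0.14 in the *yap1* libraries and -0.35, -0.47 and -0.31 in the WT libraries. WT replicate 2 thus lay near the other WT libraries for this group.

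For single genes of the mitochondrial ribosome, WT replicate 2 lay at varied distances from the other WT libraries. *MRPL20*, for a protein of the large subunit, had 42.9, 44.9 and 43.9 CPM in the *yap1* mutant and 22.8, 28.9 and 23.8 CPM in WT, with a log2 fold change of 0.93 (adjusted p = 0.0031). *RSM19*, for a protein of the small subunit, had 68.0, 58.2 and 57.5 CPM in the *yap1* mutant and 24.4, 5.69 and 26.5 CPM in WT, where replicate 2 was over 4-fold below the other WT libraries. The log2 fold change was 1.70 with all libraries (adjusted p = 0.24) and 1.28 without that replicate (adjusted p = 0.00015). *MRPL6*, for a protein of the large subunit, had 24.8, 25.7 and 19.0 CPM in the *yap1* mutant and 10.2, 5.38 and 12 CPM in WT (log2 fold change 1.07, adjusted p = 0.0061). *MRPL39*, near *YAP1* on the chromosome with *ERG6* between them, had 43.1, 40.3 and 40.4 CPM in the *yap1* mutant and 21.6, 17.2 and 24.5 CPM in WT. Its log2 fold change of 0.85 (adjusted p = 0.0052) lies within the range of the group. The counting did not use strand, so rows that overlap share reads. *YGL069C*, beside *MNP1*, was also called, and its reads cannot be told apart from those of *MNP1*. The same holds for *YPR099C* and *MRPL51*.

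Genes for mitochondrial ribosomal proteins are short, and short genes as a whole were somewhat higher in the *yap1* mutant. The comparison was therefore made within classes of coding length, with genes in none of the mitochondrial lists as the others. Of genes up to 600 bp of coding length, 27 of 33 mitochondrial ribosomal genes did not overlap and were higher in the *yap1* mutant, against 9.91% of 959 other genes, with median log2 fold changes of 0.65 and 0.08 without WT replicate 2. Above 600 and up to 1000 bp the counts were 14 of 28 against 7.80% of 1193, with medians of 0.39 and 0.02. Above 1000 bp they were 10 of 12 against 5.27% of 3551, with medians of 0.52 and -0.03.

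Genes for import and folding of mitochondrial proteins followed with smaller changes. Of 35 genes tested, 30 were above 0 without WT replicate 2 (median 0.37). In 10 the strains did not overlap with the *yap1* mutant higher (28.6%, against 7.37% of all genes). Of the 35, 4 were called higher (11.4%, against 1.13% of all genes) and none lower. *HSP10* was one of these. *HSP60*, which forms the chaperonin with Hsp10, had 486, 579 and 554 CPM in the *yap1* mutant and 360, 236 and 345 CPM in WT (log2 fold change 0.63, adjusted p = 0.021). *TOM5* and *TOM6* encode small subunits of the outer membrane import channel. *TOM5* had 67.3, 78.3 and 64.7 CPM in the *yap1* mutant and 41.7, 9.04 and 40.7 CPM in WT (log2 fold change 0.78, adjusted p = 0.0061), and *TOM6* had 66.1, 109 and 68.8 CPM in the *yap1* mutant and 49.9, 11.2 and 48.5 CPM in WT (log2 fold change 0.74, adjusted p = 0.044). In both, WT replicate 2 was far below the other WT libraries. With a *yap1* library left out too, 4, 2 and 5 of the 35 were called without *yap1* replicates 1, 2 and 3. Over all genes these fits called 60, 42 and 86 higher.

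Other genes for mitochondrial proteins that were called higher are in none of the lists and are given one by one, with no count of the genes of like role that were not called. *PET117*, an assembly factor of cytochrome c oxidase, had 66.1, 45.8 and 55.9 CPM in the *yap1* mutant and 22.1, 26.8 and 15.5 CPM in WT, and its log2 fold change without WT replicate 2 was 1.59 (adjusted p = 0.0014). *COA3*, a regulator of the translation and assembly of Cox1, had 33.3, 33.0 and 19.3 CPM in the *yap1* mutant and 9.38, 1.54 and 13.8 CPM in WT (log2 fold change 1.3, adjusted p = 0.021, against 1.80 and 0.39 with all libraries). *MAM33*, a matrix protein linked to oxidative phosphorylation and mitochondrial translation, had 23.1, 28.6 and 11.6 CPM in the *yap1* mutant and 6.89, 1.90 and 8.86 CPM in WT (log2 fold change 1.43, adjusted p = 0.029). *MHR1*, whose product is known for recombination of mitochondrial DNA, had 39.4, 25.4 and 35.8 CPM in the *yap1* mutant and 14.1, 21.4 and 17.6 CPM in WT (log2 fold change 1.09, adjusted p = 0.0061). *CBP6*, *TUF1* and *MRF1* were named after their values were seen. *CBP6*, for a factor that activates the translation of cytochrome b, had 32.0, 25.0 and 25.5 CPM in the *yap1* mutant and 13.8, 19.5 and 14.1 CPM in WT (log2 fold change 1.00, adjusted p = 0.0061). *TUF1*, the mitochondrial elongation factor, and *MRF1*, the mitochondrial release factor, had log2 fold changes of 0.74 (adjusted p = 0.0061) and 0.96 (adjusted p = 0.0085). Further called genes, also named after their values were seen, were *PET100*, for an assembly factor of cytochrome c oxidase (0.68, adjusted p = 0.021), *SDH5*, for the factor that attaches FAD to succinate dehydrogenase (0.77, adjusted p = 0.018), *ATP23*, for a protease that assembles ATP synthase (0.81, adjusted p = 0.047), and *MIC12*, for a part of the complex that shapes the inner membrane (1.04, adjusted p = 0.0016). In these 4 genes the strains did not overlap.

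For the subunits of the respiratory chain, all 41 nuclear genes tested were above 0, but edgeR called none, and the smallest adjusted p was 0.20. At an unadjusted p under 0.05, 6 were higher and 0 lower, against 525 and 352 of the 6825 genes tested. DESeq2 also called none without WT replicate 2. With *yap1* replicate 3 left out as well, edgeR called 3 higher (median 0.37), beside 86 of all 6814 genes tested. Scaling by total counts with all libraries called 16 higher, beside 285 of all 6781 genes. Under that scaling the median was 1.01, beside 0.36 for all genes. The median log2 fold change was 0.57 with all libraries and 0.27 without WT replicate 2. The median level of WT replicate 2 for this group was -1.44, against -0.24 and -0.06 in the other WT libraries and 0.22, 0.21 and -0.07 in the *yap1* libraries. *ATP19*, *COX12*, *QCR7* and *RIP1* had the smallest p of this group, with log2 fold changes of 0.40, 0.46, 0.37 and 0.95. Mitochondrial DNA gave few polyadenylated reads. Of its 8 protein genes, 5 were tested without WT replicate 2, with log2 fold changes from -0.83 to 1.62. Of these 5, 3 were above 0, and none was called. *COX1*, for the catalytic subunit of cytochrome c oxidase, had the most counts of the 8, with 223, 300 and 291 CPM in the *yap1* mutant and 173, 137 and 205 CPM in WT (log2 fold change 0.53, adjusted p = 0.093). The strains did not overlap, but the gene was not called. *AI5_ALPHA*, the reading frame within an intron of *COX1*, was called and was named after its values were seen, with 29.0, 32.7 and 27.7 CPM in the *yap1* mutant and 15.9, 16.9 and 18 CPM in WT (log2 fold change 0.83, adjusted p = 0.021). Its annotated span begins at the first base of *COX1* and lies within it, so the rows share reads. Together the 5 mitochondrial lists held 171 tested genes, 2.51% of all, and 28 of the 77 called higher, 36.4%. Of the 171, 16.4% were called higher, against 1.13% of all genes, and none was called lower.

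**Figure D2:**
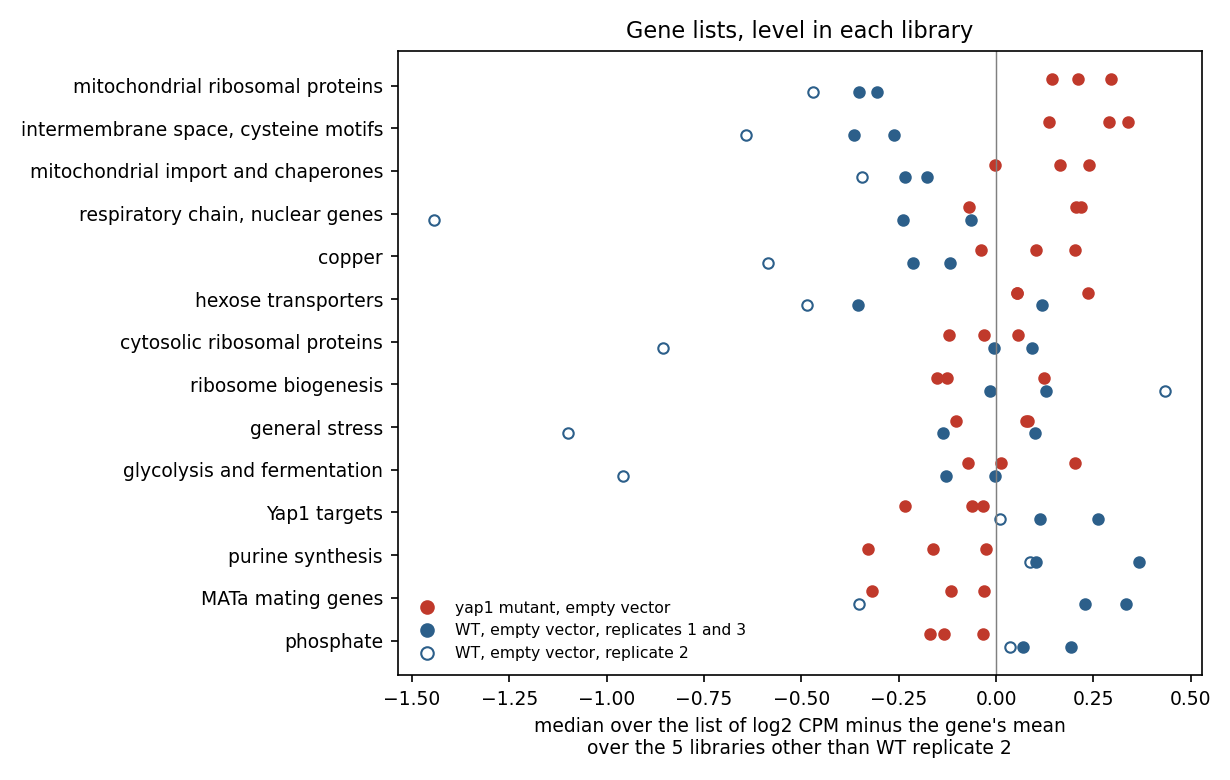
Median level of each gene list in each library, as log2 CPM minus the mean of the gene over the 5 libraries other than WT replicate 2. Red points, above, are the *yap1* mutant and blue points, below, WT, with WT replicate 2 open. The mitochondrial ribosomal, intermembrane space, import and copper lists separate the strains with the *yap1* mutant higher. The Yap1 target, purine synthesis and phosphate lists separate them with it lower. WT replicate 2 lies far to the left for the respiratory chain (-1.44) and cytosolic ribosomal proteins (-0.86), among others.

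**Figure D3:**
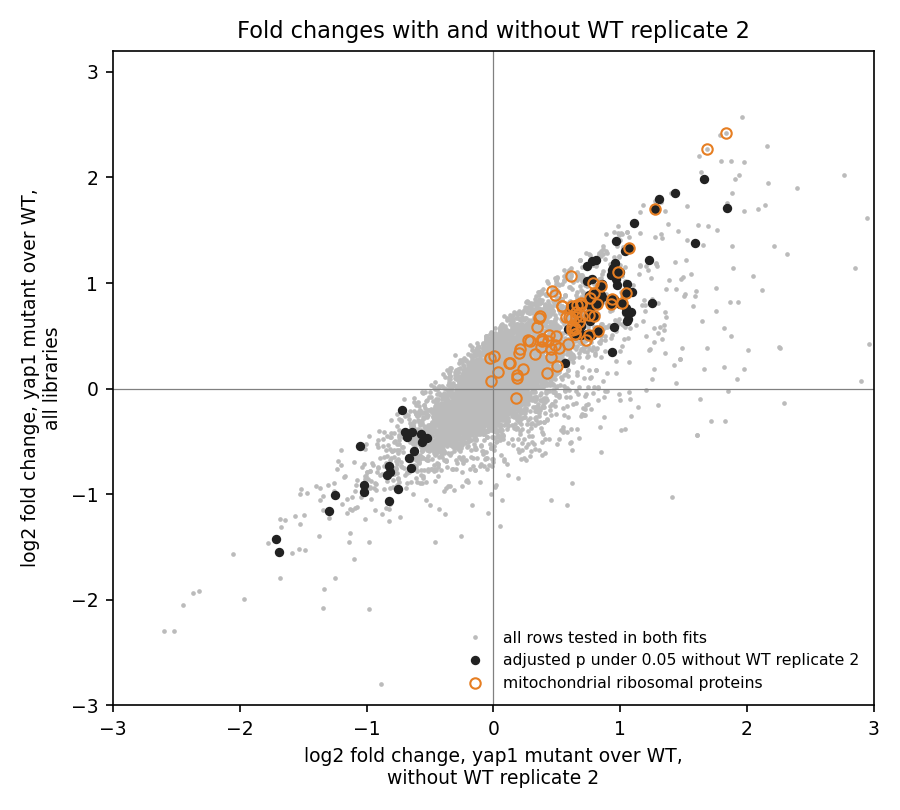
Log2 fold change of the *yap1* mutant over WT with all libraries (vertical) against that without WT replicate 2 (horizontal). Black points are the genes called without WT replicate 2 and orange rings the 73 mitochondrial ribosomal genes. The rings lie right of 0 for 71 genes, and 14 genes fall outside the axes, 4 of them called.

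Of 137 genes for cytosolic ribosomal proteins edgeR called none, and 0 had an unadjusted p under 0.05 without WT replicate 2. The median log2 fold change was 0.18 with all libraries and -0.06 without WT replicate 2. In 1 gene the strains did not overlap with the *yap1* mutant higher (0.73%, against 7.37% of all genes). In 8 they did not overlap with it lower (5.84%, against 8.04% of all genes). Of 68 genes for ribosome biogenesis none was called either (median -0.10), and 6 had an unadjusted p under 0.05, all lower. At that p, 352 of all 6825 genes tested were lower. In 11 of the 68 (16.2%, against 8.04% of all genes) the strains did not overlap with the *yap1* mutant lower. In 0 they did not overlap with it higher (against 7.37% of all genes). Of 29 chaperones tested, 3 were called higher (10.3%, against 1.13% of all genes), namely *HSP10*, *HSP60* and *HSP30*. In the other direction 1 was called, *HSP31* (3.45%, against 0.337% of all genes).

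The genes that rose were searched for the Puf3 motif TGTANATA on the sense strand of the 250 bases after the stop codon. The motif was chosen with the results known, and a match is a description of the sequence. The windows of the genes with the clearest changes are shown, written 5′ to 3′ on the strand of the gene with the motif in capitals, from the R64 reference of S288C.
COX17: caaccatttctTGTATATAtaagaataggt
COX17: tatatactaccTGTAAATAtgtgcgatgca
MDM35: attattcaacaTGTAAATActaatactgca
MNP1: ggaatatatcaTGTAAATAtgtttaactct
HSP10: atgtatgtaccTGTAAATAggccattatgt
MRPL20: aataacaatcgTGTAAATActactctataa
RSM19: atgatatatcaTGTAAATAagatcaagcca
PET117: ctactcttgttTGTATATAtgtaagaatcg
COA3: ctctcctctttTGTAAATAgtttacctact
MAM33: tcaaatttaacTGTAAATAatttatatata
The 2 windows of *COX17* are chrXII:131155-131184 and chrXII:131110-131139 on the minus strand, and their motifs begin 32 and 77 bases after the stop codon. The others are chrXI:339126-339155 (minus) for *MDM35*, chrVII:375739-375768 (plus) for *MNP1*, chrXV:370451-370480 (minus) for *HSP10*, chrXI:599049-599078 (minus) for *MRPL20*, chrXIV:694996-695025 (minus) for *RSM19*, chrV:272128-272157 (plus) for *PET117*, chrX:317041-317070 (plus) for *COA3* and chrIX:230190-230219 (minus) for *MAM33*. Each lies downstream of the coding sequence of its gene.

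Of the 5878 tested genes with an R64 gene, 903 (15.4%) carried the motif in this window. Among genes called higher it was 48 of 71 (67.6%), and among genes called lower 3 of 21 (14.3%). The motif was found in 72 of 73 mitochondrial ribosomal genes (98.6%), 15 of 19 intermembrane space genes (78.9%) and 21 of 35 import genes (60.0%), but in 7 of 41 respiratory chain genes (17.1%) and 8 of 137 cytosolic ribosomal genes (5.84%). Of the 903 genes with the motif, 5.32% were called higher and 20.7% had all 3 *yap1* libraries above all 3 WT libraries. Of the 4975 genes without it, these shares were 0.462% and 5.31%.

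Within the mitochondrial lists, all 28 called genes were among the 115 with the motif, whose median log2 fold change was 0.51 without WT replicate 2. None of the 51 without the motif was called, and their median was 0.26. These sets differ in their lists, since 72 of the 115 are mitochondrial ribosomal genes and 34 of the 51 respiratory chain genes. Within lists, the medians with and without the motif were 0.51 and 0.44 for the intermembrane space and 0.42 and 0.19 for import. For the respiratory chain they were 0.32 and 0.27, and none of its 7 genes with the motif was called. Only 1 mitochondrial ribosomal gene lacked the motif. Outside these lists, 20 of 788 genes with the motif were called higher (2.54%, median 0.07), against 23 of 4924 without it (0.467%, median -0.01). *PUF3* itself, named after its values were seen, had 4.84, 4.44 and 7.02 CPM in the *yap1* mutant and 12.8, 9.39 and 9.70 CPM in WT. The strains did not overlap, but the gene was not called, with a log2 fold change of -1.03 (SE 0.30, adjusted p = 0.095) without WT replicate 2 and -0.97 with all libraries (adjusted p = 0.26).

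**Figure D4:**
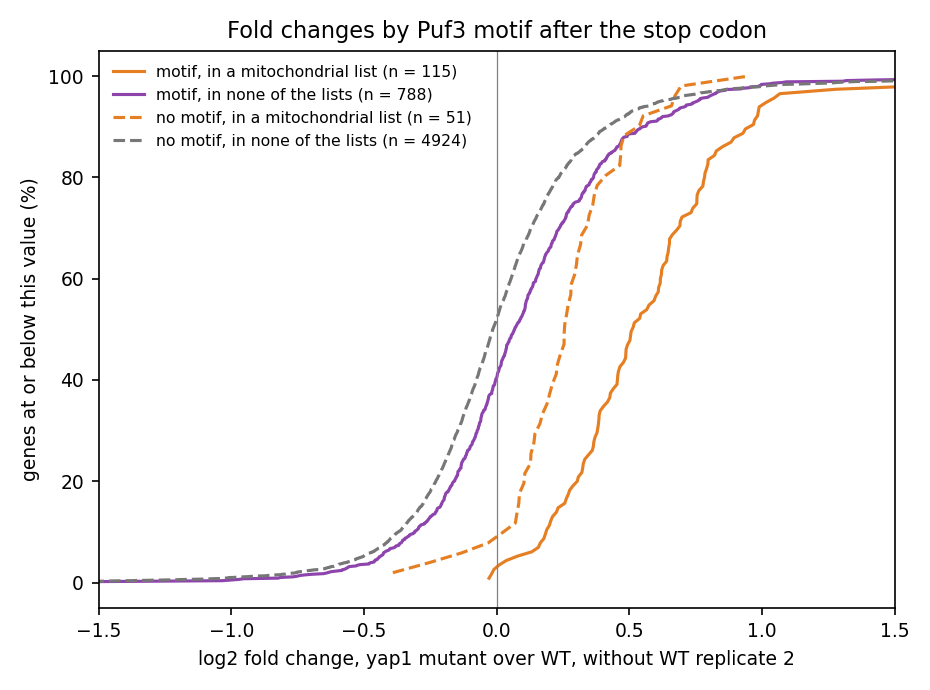
Share of genes (vertical, in percent) at or below each log2 fold change of the *yap1* mutant over WT without WT replicate 2 (horizontal). Orange lines are genes of the mitochondrial lists and the others are genes in none of them, with solid lines for genes with the Puf3 motif and dashed lines for genes without it. The solid orange curve, 115 genes with a median of 0.51, lies farthest to the right.

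Among known targets of Yap1, a few antioxidant genes were lower in the *yap1* mutant. Of 30 targets tested, none was called with all libraries. Without WT replicate 2, 4 were called lower (13.3%, against 0.337% of all genes), namely *GPX2*, *YNL134C*, *SRX1* and *AHP1*. None was called higher, against 1.13% of all genes. Of the 30, 8 were called lower with DESeq2, 2 with voom and 2 when *yap1* replicate 1 was left out too. Over all genes these settings called 51, 12 and 17 lower. The median log2 fold change was -0.25, against -0.10 with all libraries, where scaling by total counts gave 0.31 beside 0.36 for all genes. In 9 of the 30 the strains did not overlap, with the *yap1* mutant lower (30%, against 8.04% of all genes), and in none with it higher. YREs were searched on both strands of the 500 bases before the start codon. Those of the 4 called targets are shown on the strand of the gene with the motif, or its complement, in capitals.
GPX2: acggacgttacTTACTAAatgtacgacga
GPX2: tatctagacaaTTAGTAAttccgatgaca
YNL134C: acagcccctgcTGACTAAagttcctcgga
YNL134C: attggcatcgaTTAGTAAggacagatgtt
SRX1: tttttccctgaTTAGTAAgctacatcatt
SRX1: cgccattatttTTAGTCAttacagtagcc
AHP1: tgtctaTTAGTAAtcaagaaaaga
The windows are chrII:707100-707128 and chrII:707257-707285 (plus) for *GPX2*, chrXIV:373853-373881 and chrXIV:373752-373780 (minus) for *YNL134C*, chrXI:277969-277997 and chrXI:278119-278147 (plus) for *SRX1* and chrXII:368281-368304 (plus) for *AHP1*. A YRE was found before 20 of 28 targets (71.4%) and before 1010 of 5878 tested genes (17.2%). It was found before 7 of 21 genes called lower (33.3%) and 10 of 71 called higher (14.1%). The site of *AHP1* lies 488 to 494 bases before its start codon. The same bases lie 163 to 169 bases before *YLR108C*, also called lower, and the 7 count this site for both genes.

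*GPX2*, for a glutathione peroxidase-like protein, fell most among the targets. It had 2.02, 3.56 and 4.13 CPM in the *yap1* mutant and 8.91, 4.67 and 12.4 CPM in WT, with a log2 fold change of -1.72 (SE 0.25, adjusted p = 0.00097) without WT replicate 2 and -1.42 (adjusted p = 0.17) with all libraries. *YNL134C*, for an aldehyde reductase of the alcohol dehydrogenase family, had 127, 134 and 148 CPM in the *yap1* mutant and 232, 370 and 256 CPM in WT, where replicate 2 was the highest (log2 fold change -0.82, adjusted p = 0.0023). *SRX1* encodes sulfiredoxin, which repairs overoxidized peroxiredoxins. It had 4.67, 4.79 and 4.74 CPM in the *yap1* mutant and 7.36, 6.70 and 9.47 CPM in WT (log2 fold change -0.82, adjusted p = 0.035). *AHP1* encodes an abundant thiol peroxidase that acts on alkyl hydroperoxides. It had 1794, 1910 and 2089 CPM in the *yap1* mutant and 3046, 2480 and 2697 CPM in WT (log2 fold change -0.56, adjusted p = 0.035).

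Other antioxidant targets lay lower in the *yap1* mutant without being called. The thioredoxin gene *TRX2* had 230, 315 and 256 CPM in the *yap1* mutant and 374, 318 and 406 CPM in WT (log2 fold change -0.53, adjusted p = 0.072). The peroxiredoxin gene *TSA1* had 464, 574 and 563 CPM in the *yap1* mutant and 728, 520 and 797 CPM in WT, and the strains overlapped through WT replicate 2 (log2 fold change -0.50, adjusted p = 0.077). *GSH1*, the first enzyme of glutathione synthesis, had 2.44, 2.55 and 4.31 CPM in the *yap1* mutant and 8.03, 2.51 and 6.19 CPM in WT (log2 fold change -1.18, adjusted p = 0.066). *YLR460C*, a target of unknown function, had 1.68, 1.98 and 0.522 CPM in the *yap1* mutant and 5.60, 3.88 and 3.05 CPM in WT (log2 fold change -1.58, adjusted p = 0.071). The thioredoxin reductase gene *TRR1* (-0.41, adjusted p = 0.17), the superoxide dismutase gene *SOD1* (-0.29, adjusted p = 0.32) and the glutathione reductase gene *GLR1* (-0.30, adjusted p = 0.39) had smaller log2 fold changes. Without WT replicate 2, 9 of the 30 targets were above 0, and 13 were with all libraries. The highest, *AAD6*, for a putative aryl-alcohol dehydrogenase, had 0.758, 0.571 and 1.14 CPM in the *yap1* mutant and 0.270, 0.882 and 0.187 CPM in WT (log2 fold change 1.87, adjusted p = 0.12), and it was the only target higher at an unadjusted p under 0.05. *OYE2*, for an NADPH oxidoreductase, had 229, 233 and 181 CPM in the *yap1* mutant and 160, 33.4 and 188 CPM in WT, so the strains overlapped (log2 fold change 0.31, adjusted p = 0.45).

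None of the transporter targets named here was called. *FLR1*, a drug:H+ antiporter, had 13.8, 14.3 and 15.2 CPM in the *yap1* mutant and 22.5, 16.3 and 16.2 CPM in WT (log2 fold change -0.41, adjusted p = 0.24). The strains did not overlap for *FLR1*. *ATR1*, of the same family, had 9.22, 8.48 and 7.92 CPM in the *yap1* mutant and 8.84, 11.5 and 10.5 CPM in WT (log2 fold change -0.17, adjusted p = 0.74). *YCF1*, the vacuolar glutathione conjugate pump, had 48.0, 42.9 and 43.5 CPM in the *yap1* mutant and 46.2, 43.6 and 43.0 CPM in WT (log2 fold change 0.02, SE 0.14, adjusted p = 0.97). *HSP31*, for a methylglyoxalase and chaperone with a YRE upstream, is not in the list of targets. It had 71.8, 94.3 and 86.2 CPM in the *yap1* mutant and 128, 160 and 137 CPM in WT and was called lower (log2 fold change -0.65, adjusted p = 0.017).

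**Figure D5:**
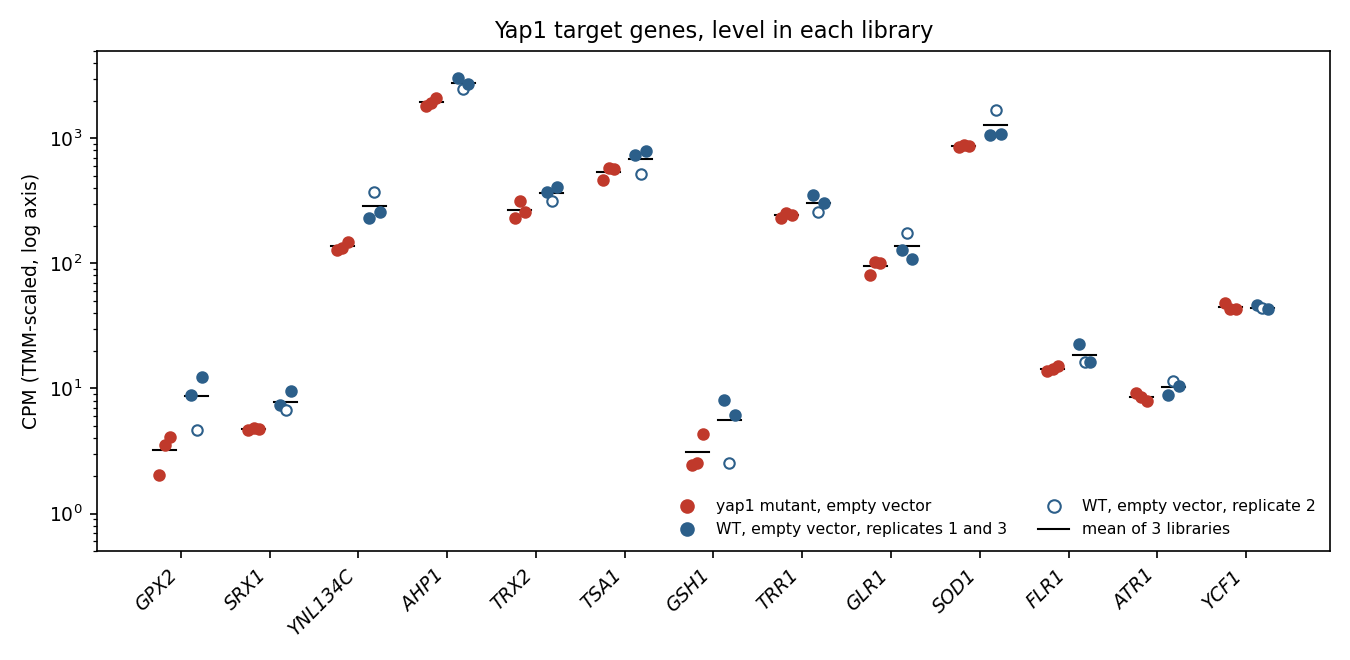
CPM (log axis) of 13 Yap1 targets in each library, with red points for the *yap1* mutant, blue points for WT, an open point for WT replicate 2 and bars for the mean of 3 libraries. The red points lie below all WT points for the called genes *GPX2*, *SRX1*, *YNL134C* and *AHP1*. They also do for *TRX2* and *FLR1*, which were not called, while those of *YCF1* lie among the WT points.

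*NCE103*, for carbonic anhydrase, is outside the Yap1 list. It had the largest fall after *YAP1* among called genes with at least 10 CPM, with 54.8, 48.6 and 31.4 CPM in the *yap1* mutant and 167, 103 and 126 CPM in WT (log2 fold change -1.69, adjusted p = 0.024 without WT replicate 2). Genes of purine synthesis lay lower as a group. All 13 had a log2 fold change below 0 without WT replicate 2 (median -0.40). In 6 the strains did not overlap with the *yap1* mutant lower (46.2%, against 8.04% of all genes). The median was -0.37 with all libraries and 0.03 under scaling by total counts, beside 0.36 for all genes. Of the 13, 2 were called lower (15.4%, against 0.337% of all genes). *ADE17*, for the enzyme of the last steps to IMP, had 12.2, 15 and 13.2 CPM in the *yap1* mutant and 35.6, 24.5 and 19.7 CPM in WT (log2 fold change -1.02, adjusted p = 0.013). *ADE2* had 39.6, 41.9 and 34.6 CPM in the *yap1* mutant and 66.6, 34.0 and 58.8 CPM in WT, with WT replicate 2 below the *yap1* libraries (log2 fold change -0.68, adjusted p = 0.013). The one-carbon genes near this pathway gave -0.57 for *SHM2* (adjusted p = 0.066) and a called fall for *GCV2*, a subunit of glycine decarboxylase, with 47.6, 39.6 and 35.7 CPM in the *yap1* mutant and 74.5, 98.8 and 64.8 CPM in WT (log2 fold change -0.75, adjusted p = 0.021).

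Genes of **a** cells for mating lay lower as well, without WT replicate 2. All 13 were below 0 there, with a median of -0.39, against -0.21 with all libraries and 0.23 under scaling by total counts. *FUS1*, needed for cell fusion, had 8.50, 6.54 and 9.63 CPM in the *yap1* mutant and 14.1, 13.8 and 15.6 CPM in WT (log2 fold change -0.84, adjusted p = 0.038). *MFA1* had 151, 136 and 96.0 CPM in the *yap1* mutant and 234, 15.5 and 191 CPM in WT. Its call (log2 fold change -0.72, adjusted p = 0.033) rested on leaving out WT replicate 2, which lay far below every other library, and with it the log2 fold change was -0.20 (adjusted p = 0.93). With a *yap1* library left out too, at most 1 of the 13 was called, and 0 without *yap1* replicate 2 (edgeR). Over all genes these fits called 13 to 24 lower. *FAR1*, which arrests the cell cycle for mating, and *MFA2* had log2 fold changes of -0.62 and -0.53 and were not called (adjusted p = 0.065 and 0.072).

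The other genes called lower are given one by one. *MUP1*, the high-affinity methionine permease, had 60.8, 61.1 and 65.4 CPM in the *yap1* mutant and 108, 52.8 and 88.9 CPM in WT (log2 fold change -0.64, adjusted p = 0.016). *MEP2*, *CAR1*, *DUR1,2* and *GAT2* were named after their values were seen. *CAR1*, for arginase, had 85.8, 102 and 87.6 CPM in the *yap1* mutant and 144, 142 and 149 CPM in WT (log2 fold change -0.66, adjusted p = 0.021). The ammonium permease gene *MEP2* (-0.70, adjusted p = 0.035), the urea amidolyase gene *DUR1,2* (-0.57, adjusted p = 0.044) and *GAT2*, for a GATA-type zinc finger protein (-0.63, adjusted p = 0.046), had like log2 fold changes. In *MUP1* and *MEP2*, WT replicate 2 lay below the *yap1* libraries. *PYC1*, for pyruvate carboxylase, had 88.0, 92.1 and 91.5 CPM in the *yap1* mutant and 129, 114 and 133 CPM in WT (log2 fold change -0.52, adjusted p = 0.038). *YDR089W* (*VTC5*), a subunit of the vacuolar polyphosphate synthase, had 17.2, 19.8 and 15 CPM in the *yap1* mutant and 40.8, 27.2 and 30 CPM in WT (log2 fold change -1.02, adjusted p = 0.0052). *IZH4*, for a membrane protein linked to zinc and sterols (-0.81, adjusted p = 0.038), *YOR225W* (-1.25, adjusted p = 0.0016) and *YLR108C* (-1.3, adjusted p = 0.0044), named after its values were seen, were also called. *ISU2*, a scaffold for iron-sulfur clusters, was a mitochondrial gene that fell, with 10.1, 9.62 and 6.26 CPM in the *yap1* mutant and 22.1, 1.85 and 14.2 CPM in WT (log2 fold change -1.05, adjusted p = 0.021), although WT replicate 2 was the lowest library of all.

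Genes that rose outside the mitochondrial lists had varied roles. *HSP30*, a plasma membrane protein that restrains the proton ATPase Pma1 under stress, had 126, 180 and 115 CPM in the *yap1* mutant and 55.2, 11.1 and 75.7 CPM in WT (log2 fold change 1.11, adjusted p = 0.0061). *ADH5*, an alcohol dehydrogenase, had 70.2, 72.8 and 74.3 CPM in the *yap1* mutant and 30.6, 28.2 and 42.5 CPM in WT (log2 fold change 1.00, adjusted p = 0.011). *HXT4*, a hexose transporter, had 167, 220 and 168 CPM in the *yap1* mutant and 92.4, 52.9 and 125 CPM in WT (log2 fold change 0.78, adjusted p = 0.027), and *HXT6* had a log2 fold change of 0.89 without being called (adjusted p = 0.084). *INO1*, the first enzyme of inositol synthesis, which was named after its values were seen, had 227, 255 and 176 CPM in the *yap1* mutant and 105, 59.7 and 123 CPM in WT (log2 fold change 0.96, adjusted p = 0.024). *ARG5,6*, for enzymes of arginine synthesis in mitochondria, had 24.6, 20.4 and 17.3 CPM in the *yap1* mutant and 9.52, 6.66 and 12.4 CPM in WT (log2 fold change 0.93, adjusted p = 0.038).

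Of 16 genes for copper handling, 3 were called higher (18.8%, against 1.13% of all genes), *COX17* among them, and none lower. *ATX1*, which carries copper to the Golgi, had 90.4, 98.0 and 83.9 CPM in the *yap1* mutant and 59.1, 39.6 and 61.3 CPM in WT (log2 fold change 0.61, adjusted p = 0.029). *SCO1*, which takes copper from Cox17, had 50.4, 49.1 and 52.6 CPM in the *yap1* mutant and 31.1, 45.1 and 30.3 CPM in WT (log2 fold change 0.74, adjusted p = 0.032). In both genes the strains did not overlap.

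Several rows with large rises have no known function or overlap another gene. *YER067C-A* had 136, 166 and 162 CPM in the *yap1* mutant and 50.0, 133 and 97.2 CPM in WT (log2 fold change 1.08, adjusted p = 0.015). It overlaps *RGI1*, a gene linked to respiratory growth, with a similar level (log2 fold change 1.05, adjusted p = 0.014). *YMR316C-A* (1.05) overlaps *DIA1* (1.04, adjusted p = 0.0014), and the reads of each pair cannot be told apart. *YKR075C*, of unknown function, had 18.1, 17.6 and 11 CPM in the *yap1* mutant and 5, 6.79 and 8.30 CPM in WT (log2 fold change 1.23), and *RTS3*, for a putative part of a protein phosphatase complex, had 22.2, 30.7 and 32.3 CPM in the *yap1* mutant and 13.2, 15.3 and 14.4 CPM in WT (log2 fold change 1.05, adjusted p = 0.0074). Some called rows had few counts, with 0 to 2 in WT replicates 1 and 3. *YGL218W* had 17, 40 and 13 counts in the *yap1* mutant and 0, 35 and 0 counts in WT. *YPR014C* had 25, 12 and 12 counts in the *yap1* mutant and 0, 9 and 0 counts in WT, and *ANS1* had 26, 28 and 28 counts in the *yap1* mutant and 0, 11 and 2 counts in WT. In each of these 3 rows WT replicate 2 was the highest WT library.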

How the data were processed

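The authors aligned single-end QuantSeq 3′ reads with Bowtie2 and counted unique and multiple alignments per gene with bedtools; the submitters' processing notes name the build sacCer3, and versions are not given in the sources used here. The deposited values are raw counts, 1 list of 7126 rows per library, without normalization or strand. Lists were joined by position, since 169 rows are renamed in WT replicate 2. Of the rows, 6212 were paired with an R64 gene, the S288C assembly that sacCer3 also holds. A table of mouse genes and the 4 libraries without plasmid were not used.

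The test was the robust quasi-likelihood F test of edgeR 4.0.16 (R 4.3.3) with filterByExpr, TMM scaling and Benjamini-Hochberg adjustment over all rows tested, at 0.05. The 9 plasmid libraries, 3 with *YAP1* overexpression among them, entered 1 fit for the spread, and 8 entered the fit without WT replicate 2. The SE of a log2 fold change was derived from its F statistic, as |log2 fold change|/√F. The script was tested on simulated data. Precision is limited by the spread between libraries more than by depth, at 6409605 to 10043801 counts outside ribosomal RNA.

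The members, lists and alternatives were chosen with earlier results of these data known. The genes named are those called with all libraries, the 12 largest rises and 10 largest falls among genes called without WT replicate 2 with at least 10 CPM and no overlap, up to 4 members of each list by smallest p, and a set chosen by name. Others were named after their values were seen, *YLR460C*, *AAD6*, *OYE2*, *TIM9*, *RGI1*, *DIA1*, *MRPL51*, *YGL069C*, *YPR099C*, *YGL218W*, *YPR014C* and *ANS1* among them. The alternatives were DESeq2 1.42.0, voom of limma 3.58.1 with sample weights, other scalings and filters, fits without the overexpression libraries, a replicate block and each library left out.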

Additional observations from a re-analysis of the deposited data

How the results depend on the processing

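With all libraries, the 4 genes higher and 1 lower became 82 and 39 with DESeq2, 285 and 2 with scaling by total counts, 25 and 7 with voom and sample weights, and 0 and 0 when only the 6 libraries were fitted. Upper-quartile scaling, other filters on low counts, leaving out ribosomal RNA rows or renamed rows kept the counts within 1.5 times. Leaving out 1 library gave 1 to 77 higher and 0 to 23 lower, and the 5 libraries without WT replicate 2 and without overexpression gave 62 and 24. Deviations of same-numbered libraries from their group mean correlated at r = 0.177, -0.156 and -0.250, against -0.226 to 0.335 for the other pairs. No pairing by replicate number was seen, but 3 values centred within each group cannot settle whether there is any. With a replicate block, 1 gene was higher and 0 lower, and *YAP1* was -6.26 (adjusted p = 0.056), against -6.16 (adjusted p = 0.071) in the 6 libraries only. Left-out libraries moved *YAP1* between -7.31 and -5.67. For the 77 and 23 calls without WT replicate 2, the alternatives were chosen after seeing the data. There DESeq2 gave 132 and 51 with all 100 calls shared, voom 46 and 12 with 58 shared, and a replicate block 74 and 36 with 86 shared. Leaving out a *yap1* library too gave 42 to 86 higher and 13 to 24 lower, the lowest without *yap1* replicate 2. Scaling by total counts turned the log2 fold changes of *ISU2* (0.054), *MFA1* (0.38), *MFA2* (0.24), *MUP1* (0.040), *FLR1* (0.066), *ATR1* (0.066), *TSA1* (0.044), *TRR1* (0.082) and *MEP2* (0.039) above 0, all below the median of 0.36 except *MFA1*. The block gave 0.13 for *MFA1*. With single libraries left out, *ISU2* ran from -1.05 to 0.13, *MFA1* from -0.72 to 0.32, *MFA2* from -0.53 to 0.027 and *YCF1* from -0.035 to 0.061. The cause of these shifts was not tested. The calls of *YGL218W*, *YPR014C* and *ANS1*, rows with few counts, were made without WT replicate 2, their highest WT library. They were not made in the main fit of all libraries.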
